A study of Mus musculus with 12 samples.

Results

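The response of K27M-mutant cells to an EZH2 inhibitor was followed in 6 of the 12 RNA-seq libraries of the study, the 3 K27M libraries grown with the inhibitor and the 3 K27M libraries grown with its solvent. The cells are mouse neural stem cells driven by PDGF, a growth factor ligand, and serve as a model of diffuse intrinsic pontine glioma, a tumour of the brainstem in children. They carry histone H3.3 with the K27M substitution, which puts methionine in place of the lysine that PRC2 methylates. Cells of both groups were grown on polylysine and laminin in neural stem cell medium with N2 and B27 supplements, EGF and bFGF, and received DMSO or 3 µM EPZ6438 for 12 days. Wild-type H3.3 cells, grown with DMSO or 3 µM EPZ6438 for the same 12 days (3 libraries each), served for comparison. The labels do not say how the mutant histone and the PDGF ligand were expressed, whether a line is a single clone, or whether replicates are separate cultures, so p-values measure how far these samples differ from each other, and that may be technical. Every gene listed for the 6 libraries was taken, 14442 genes from 41805 transcripts, and 13503 of them passed the filter on low counts and were tested.

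PRC2 places methyl groups on lysine 27 of histone H3, and EZH2 is its main catalytic subunit. Its mark silences developmental genes, among them the Hox clusters, and the Ink4a/Arf locus, whose products p16Ink4a and p19Arf stop the cell cycle through the Rb and p53 pathways. K27M H3.3 is known to lower H3K27 trimethylation across the genome while some sites keep the mark, and EPZ6438 (tazemetostat) blocks the methyltransferase itself, so the comparison asks what the remaining EZH2 activity holds down in the mutant cells.

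The libraries held 22.05, 23.07 and 24.09 M (megacounts) of estimated counts with DMSO and 14.58, 12.41 and 10.89 M with the inhibitor, so the inhibitor group was the shallower. Levels are normalised CPM (counts per megacount of depth), ± denotes the SD over n = 3 libraries, fold changes are from edgeR's quasi-likelihood fit on the log2 scale with their SE where given, and a gene is called at a Benjamini-Hochberg adjusted p below 0.05 over all tested genes. With the inhibitor 3908 genes rose (28.9% of those tested) and 3690 fell (27.3%), 7598 or 56.3% in either direction. Counts of list members below are to be read beside these shares, and no list was tested. Past a 2-fold limit 918 rose (6.8%) and 330 fell (2.44%). Of the tested genes 121 had fewer than 5 counts in each DMSO library and could be seen only through the inhibitor group, so they could only rise, and 37 of these had no count with DMSO. Another 15 had fewer than 5 counts in each inhibitor library and could only fall. Lists that held such genes are described by their other members, called here the members seen in both groups, and of the 13367 tested genes of that kind 28.3% rose and 27.5% fell. Fold changes followed GC content weakly across genes (Spearman 0.27). The median log2 change was −0.16 in the lowest GC decile of genes and 0.22 in the highest. With each library's GC trend removed 7958 genes were called in place of 7598, and 82.2% of the 7598 calls remained with the same direction. The labelled cell type was checked on its markers. Nes, an intermediate filament of neural progenitors, stood at 1319 ± 23.1 CPM with DMSO and Sox2, a stem cell transcription factor, at 423 ± 14.8 CPM. Expression of Olig2, a transcription factor of oligodendrocyte precursors, was 954 ± 31.5 CPM.

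Cdkn2a, the gene of p16Ink4a and p19Arf, was called higher with the inhibitor and was resolved into its transcripts. The 250 bases upstream of the RefSeq starts of both transcripts are shown because the transcripts start at separate promoters that differ in CpG content, and capitals mark the CpG dinucleotides. The sequences are from RefSeq (GRCm38.p6, minus strand), at chr4:89282193-89282442 for p16Ink4a and chr4:89294620-89294869 for p19Arf. The p19Arf transcript that was counted starts at 89294653, inside the stretch shown, so the last bases of that stretch belong to its first exon.
p16Ink4a promoter: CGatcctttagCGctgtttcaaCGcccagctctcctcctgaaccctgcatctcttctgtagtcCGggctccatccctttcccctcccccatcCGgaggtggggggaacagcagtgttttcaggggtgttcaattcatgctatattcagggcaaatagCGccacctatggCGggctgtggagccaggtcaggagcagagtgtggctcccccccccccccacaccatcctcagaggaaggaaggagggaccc
p19Arf promoter: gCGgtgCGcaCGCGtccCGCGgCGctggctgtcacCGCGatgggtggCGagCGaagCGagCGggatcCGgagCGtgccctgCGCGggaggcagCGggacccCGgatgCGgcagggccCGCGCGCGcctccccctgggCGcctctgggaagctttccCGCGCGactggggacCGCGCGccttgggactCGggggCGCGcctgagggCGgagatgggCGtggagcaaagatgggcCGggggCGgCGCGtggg
The p16Ink4a stretch holds 7 CpG, and 46.3% of 32851 promoters of this length hold at least as many. The p19Arf stretch holds 40 CpG, a number that 1.31% of promoters reach.

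The p16Ink4a transcript (ENSMUST00000060501) stood at 0.697, 1.28 and 1.18 CPM with DMSO and at 32.9, 42.1 and 32.9 CPM with the inhibitor, 34.2-fold higher as a ratio of the means (1.05 ± 0.311 against 36.0 ± 5.29 CPM). The p19Arf transcript (ENSMUST00000107131) stood at 13.1, 12.5 and 13.7 CPM with DMSO and at 49.7, 52.3 and 57.1 CPM with the inhibitor, 4.05-fold higher. For both transcripts every inhibitor library lay above every DMSO library. The share of the gene's estimated counts that was assigned to p16Ink4a was 7.42 ± 2.18% with DMSO and 40.3 ± 4.04% with the inhibitor. The split between transcripts is kallisto's estimate, since they share their downstream exons, and it was not tested. For the gene as a whole the rise was 2.65 ± 0.064 (SE) on the log2 scale with an adjusted p of 1.6e-09.

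Wild-type cells started from a different place. There p16Ink4a stood at 15.4 ± 3.04 CPM with DMSO and 40.9 ± 2.92 CPM with the inhibitor, and p19Arf at 44.3 ± 0.694 and 54.4 ± 8.59 CPM. The inhibitor libraries of the genotypes thus lay close together, while with DMSO the mutant cells had 14.7-fold less p16Ink4a and 3.38-fold less p19Arf RNA than wild-type cells. The response of Cdkn2a differed between genotypes by 2.01 on the log2 scale (adjusted p 3.21e-06, test of the interaction over 12 libraries), larger in K27M cells.

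The other CDK inhibitors split. Cdkn1a, the p53 target that encodes p21, stood at 279, 275 and 281 CPM with DMSO and at 521, 537 and 528 CPM with the inhibitor. Cdkn1c (p57) rose by 0.86 on the log2 scale and Cdkn2b (p15Ink4b), the neighbour of Cdkn2a, by 0.36, while Cdkn1b (p27) fell by 0.60 and Cdkn2c (p18) fell by 0.73. All 7 members of the INK4 and CIP/KIP list were therefore called, 4 higher and 3 lower, and in each the groups did not overlap, as for 63.1% of all tested genes. The rise of Cdkn1a was larger in K27M than in wild-type cells by 0.68, and Cdkn1b, which was not called in wild-type cells (0.16), differed by −0.73 (adjusted p 0.000214).

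Of 16 G1 cyclin, CDK, Rb and E2F genes 6 rose and 8 fell. Cdk6, the kinase that p16Ink4a binds and inhibits, stood at 7.82, 7.82 and 8.58 CPM with DMSO and at 37.2, 32 and 31.1 CPM with the inhibitor, a rise of 2.05 ± 0.088 (SE) on the log2 scale. Ccnd2, a D-type cyclin partner of that kinase, rose from 1438 ± 21.1 to 2441 ± 42.6 CPM. Rb1, which encodes the retinoblastoma protein that CDK6 phosphorylates, fell by 0.51. The kinase, its cyclin and its inhibitor thus rose together, each with no overlap between groups, as for 63.1% of all tested genes. The difference from wild-type cells did not pass the threshold for Cdk6 (−0.27, adjusted p 0.197) or Ccnd2 (−0.06, adjusted p 0.592).

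Among 24 p53 targets 19 rose and 3 fell, and the median change of the list was 0.68 against 0.01 over all tested genes. Sesn2, a stress-induced inhibitor of mTORC1 signalling, stood at 91.7, 86.1 and 91.8 CPM with DMSO and at 178, 187 and 179 CPM with the inhibitor, and its rise was larger than in wild-type cells by 0.83 (adjusted p 0.000314). Of 20 mitosis genes 18 fell and none rose, with a median of −0.32, while the 20 DNA replication genes included 16 that fell and 1 that rose, with a median of −0.26. Most of these falls were small, and 1 mitosis gene fell by 2-fold or more. Of all tested genes 27.3% fell and 28.9% rose. Housekeeping genes fell by a similar size, 10 of 15 with a median of −0.27. Of 12 genes of the Myc and Max network 5 rose and 3 fell.

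**Figure D1:**
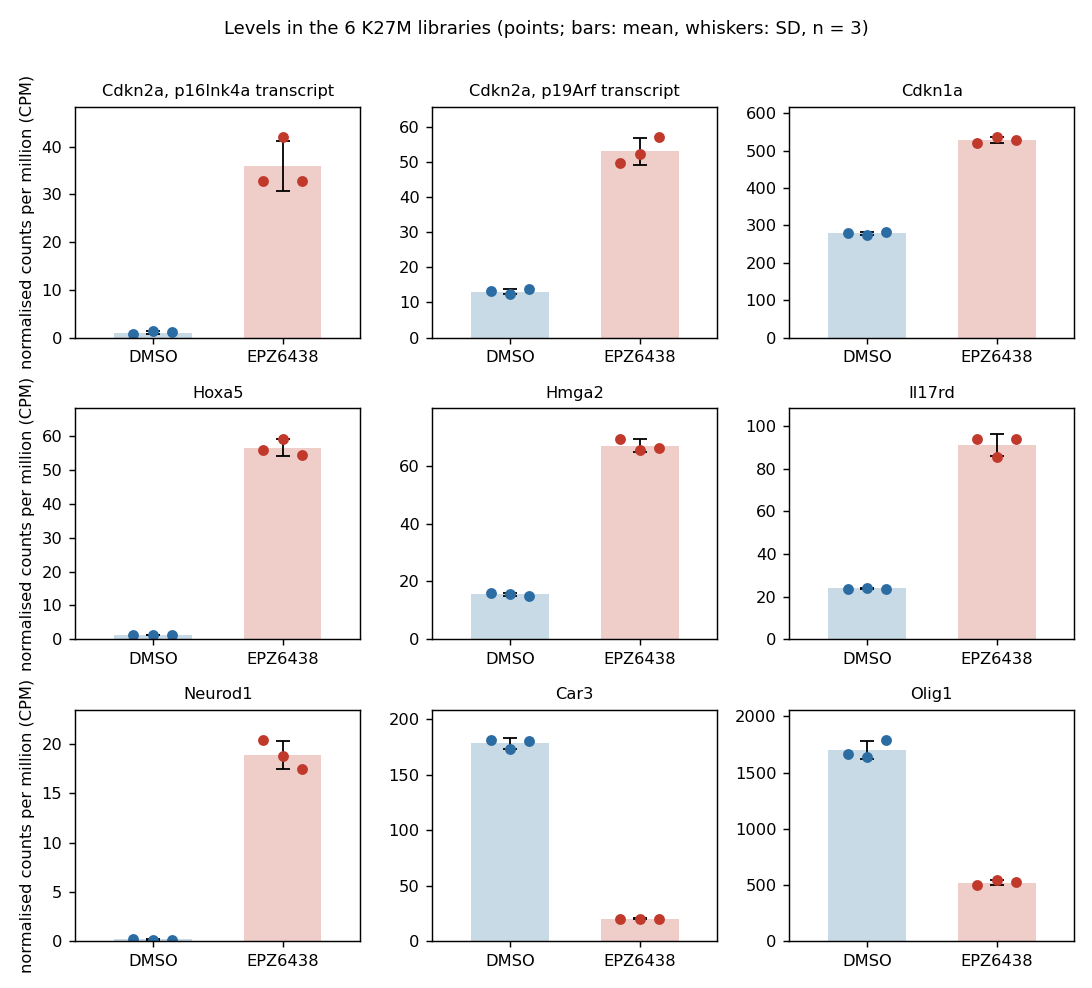
Levels of Cdkn2a transcripts and 7 genes in the 6 K27M libraries, in normalised CPM on linear axes from 0; points are libraries, bars the mean and whiskers the SD (n = 3 per group). In every panel the DMSO and EPZ6438 points do not overlap, as for 63.1% of all tested genes, and p16Ink4a goes from 1.05 to 36.0 CPM.

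Hox genes, which encode the homeodomain factors that set position along the body axis, were low or silent with DMSO, and all 27 that were tested rose. The clusters differed in where they started. The 9 HoxA genes summed to 8.79 CPM with DMSO and to 153 CPM with the inhibitor, and each had counts with DMSO. The 9 HoxB genes summed to 0.073 and 115 CPM, and 6 of them had no count in any DMSO library. For HoxC (5 genes) the sums were 0.399 and 14.3 CPM with 1 gene at 0, and for HoxD (4 genes) 0.0442 and 19.7 CPM with 2 at 0. In all, 1 HoxA, 9 HoxB, 4 HoxC and 4 HoxD genes reached the tables through the inhibitor libraries alone, and for these a rise was the only change that could be seen.

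The promoters of Hoxb8 and Hoxa5 are shown to set a gene with no counts with DMSO beside a gene of another cluster that had some. Both stretches are the 250 bases upstream of the RefSeq start (GRCm38.p6) with CpG in capitals, Hoxb8 on the plus strand at chr11:96281655-96281904 and Hoxa5 on the minus strand at chr6:52204588-52204837.
Hoxb8 promoter: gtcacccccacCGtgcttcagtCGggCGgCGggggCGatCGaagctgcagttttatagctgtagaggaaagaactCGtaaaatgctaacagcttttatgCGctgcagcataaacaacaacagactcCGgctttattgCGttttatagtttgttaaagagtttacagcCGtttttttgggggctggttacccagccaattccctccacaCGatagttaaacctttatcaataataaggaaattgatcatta
Hoxa5 promoter: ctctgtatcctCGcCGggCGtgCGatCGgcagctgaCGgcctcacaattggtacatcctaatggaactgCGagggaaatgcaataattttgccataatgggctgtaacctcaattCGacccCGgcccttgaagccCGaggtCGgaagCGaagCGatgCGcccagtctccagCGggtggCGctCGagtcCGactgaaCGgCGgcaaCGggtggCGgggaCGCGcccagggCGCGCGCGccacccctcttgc
They hold 12 and 28 CpG, counts that 33.5% and 7.61% of promoters reach. A comparison of promoter CpG over all responding genes was void, since 70.2 to 78.5% of the genes of a class had a promoter in the table, under the 80% required.

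Hoxb8 had no counts with DMSO and stood at 24.7, 28.1 and 23.2 CPM with the inhibitor, at least 575-fold higher, where the bound takes 3 counts over the DMSO group as the floor. Hoxb9 (at least 490-fold), Hoxb3 (at least 454-fold), Hoxb2 (at least 359-fold), Hoxd8 (at least 235-fold), Hoxb13 (at least 161-fold) and Hoxc13 (at least 109-fold) were silent in the same way. Hoxa5 stood at 1.3, 1.19 and 1.14 CPM with DMSO and at 56.1, 59.4 and 54.5 CPM with the inhibitor. Within HoxA the change was 5.54 ± 0.086 (SE) for Hoxa5, 4.94 for Hoxa3, 4.32 for Hoxa4 and 6.91 for Hoxa7 on the log2 scale, and smaller for Hoxa9, at 2.05. Hoxc10 rested on few counts, 1 with DMSO and 34 with the inhibitor.

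Wild-type cells also raised these clusters, and where the genes could be tested the genotypes differed in both directions within HoxA. Hoxa5 rose by 5.54 in K27M and 2.84 in wild-type cells (difference 2.74, adjusted p 8.68e-07), and Hoxa3 and Hoxa4 also rose more in K27M cells, by 1.77 and 2.40. Hoxa9 rose by 2.05 in K27M and by 6.33 in wild-type cells (difference −4.34, adjusted p 0.00039). Starting levels differed for both genes in the fit of all 12 libraries. Mean Hoxa5 with DMSO was 1.21 CPM for the mutant line but 8.6 CPM for the wild-type line. With the inhibitor these means lay close together, at 56.8 and 60.1 CPM. Mean Hoxa9 with DMSO was 0.958 CPM for the mutant line. For the wild-type line it was 0.0697 CPM, near the floor, so the sizes of that rise and of the difference are uncertain. Of the 7 HoxA genes tested for a difference 3 were more positive and 2 more negative in the mutant cells. Whether the difference follows the order of genes along the cluster was not tested. HoxB, HoxC and HoxD genes were not tested for a difference, since their transcripts are not listed for every pair of groups.

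**Figure D2:**
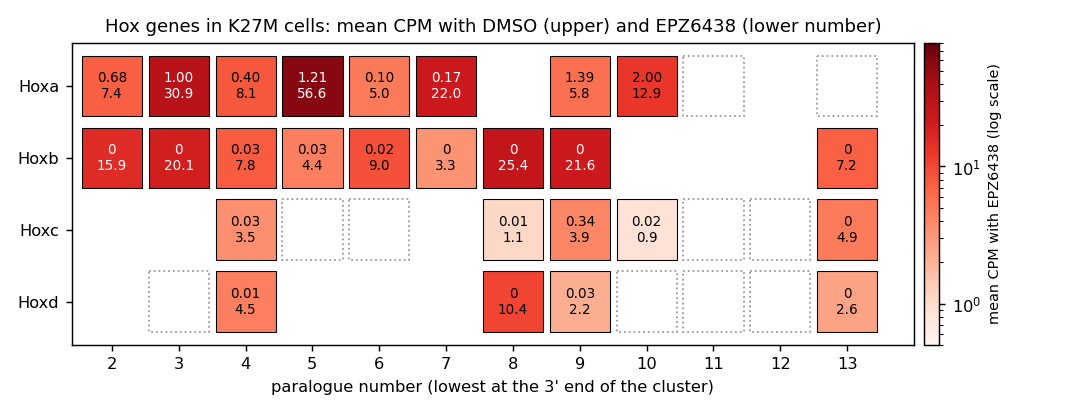
Hox genes of paralogue groups 2 to 13 by cluster (rows) and paralogue number (columns); the upper number in each box is the mean CPM with DMSO, the lower number and the colour (log scale) the mean CPM with EPZ6438, n = 3 each, and dotted boxes are genes not tested. HoxB boxes start at or near 0 with DMSO, HoxA boxes start at 0.105 CPM (Hoxa6) or above, and Hoxa5 reaches 56.6 CPM.

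Developmental transcription factors outside these clusters moved in both directions. Of the 37 homeobox and Pax factors seen in both groups 22 rose and 8 fell, with a median of 0.89, and a further 12 were listed only through the inhibitor libraries. Pax7, of the dorsal neural tube and muscle satellite cells, had no counts with DMSO and stood at 10.3, 10 and 11.4 CPM with the inhibitor, at least 239-fold higher. Lmx1b, of the dorsal limb and midbrain, was at least 144-fold higher from no counts. Both were present in every inhibitor library.

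Of the 8 T-box factors seen in both groups 6 rose and 1 fell, and 1 more was listed only through the inhibitor libraries. Tbx15, a skeletal and mesenchymal T-box factor, stood at 0.417, 0.177 and 0.169 CPM with DMSO and at 29.1, 29.5 and 27.8 CPM with the inhibitor, and Tbx5, of the heart and forelimb, rose from 0.192 ± 0.0961 to 2.61 ± 0.254 CPM. Of the 17 forkhead, GATA, Twist and related factors seen in both groups 6 rose and 3 fell, with a median of 0.03, and 14 more were listed only through the inhibitor group. Tal1, a blood and endothelial factor that also acts in spinal interneurons, was at least 188-fold higher from no counts, Foxa1, of floor plate and endoderm, at least 123-fold, and Gata6, of endoderm and heart, at least 117-fold. Twist1, of cranial mesenchyme, rose from 0.117 ± 0.0216 to 26.8 ± 2.97 CPM. Factors of ectoderm, mesoderm and endoderm were thus among those that rose. Of these, Pax7, Lmx1b, Tal1, Foxa1 and Gata6 had no counts with DMSO, so a rise was the only change that could be seen. Twist1 started from a very low level, and the members of its list seen in both groups had a median of 0.03. A shift between germ layers was not tested. In bulk RNA, few cells with a high level and many with a low level cannot be told apart, here and below.

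Several genes of fetal growth rose as well. Hmga2, a chromatin protein of fetal stem cells known to lower Ink4a/Arf expression in mouse neural stem cells, stood at 15.9, 15.7 and 15 CPM with DMSO and at 69.5, 65.6 and 66.2 CPM with the inhibitor, a change of 2.11 ± 0.051 (SE). Lin28b, an RNA-binding protein that blocks let-7 maturation, went from 0.105 ± 0.093 to 12.8 ± 1.33 CPM, and Plag1, a fetal zinc finger factor that acts on Igf2, from 0.103 ± 0.0257 to 10.1 ± 1.23 CPM. Igf2bp1, which binds Igf2 mRNA, rose by 3.54 and Igf2 itself by 1.86. Of the 8 genes of the fetal list seen in both groups 5 rose and 1 fell. The 2 others, Lin28b and Plag1, had fewer than 5 counts in each DMSO library, so they could only rise. Hmga2 rose more than in wild-type cells (difference 0.84, adjusted p 0.000368) and Igf2bp1 less (difference −2.69, adjusted p 0.00232). Mean Igf2bp1 in wild-type cells with DMSO was 0.299 CPM, near the floor, so the sizes of its rise there and of the difference are uncertain.

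Of the 17 imprinted genes seen in both groups, a class expressed from 1 parental allele, 9 rose and 2 fell, with a median of 0.33, and 2 more were listed only through the inhibitor libraries. Ndn, a growth suppressor of the Prader-Willi region, stood at 44.9, 44.2 and 45.8 CPM with DMSO and at 190, 199 and 195 CPM with the inhibitor. Magel2, its neighbour, went from 6 to 371 counts, from 0.0885 ± 0.00405 to 9.73 ± 0.166 CPM. Mest, a paternally expressed gene, rose by 1.31 ± 0.028 (SE). Each of these genes had separate groups, and the counts do not tell the alleles apart.

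Neural identity genes moved in both directions. Of 20 neural stem cell markers 13 fell and 3 rose, with a median of −0.44. Sox2 fell by 0.59, while Nes rose by 0.28. Egfr, the receptor for the EGF in the medium, stood at 748, 758 and 741 CPM with DMSO and at 259, 234 and 239 CPM with the inhibitor. Sox2 fell further than in wild-type cells, by 0.33 on the log2 scale (adjusted p 0.00523).

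Oligodendrocyte lineage genes separated from one another. Olig1, a lineage factor adjacent to Olig2, stood at 1665, 1638 and 1788 CPM with DMSO and at 496, 538 and 526 CPM with the inhibitor. Olig2 moved the other way, rising by 0.42 to 1275 ± 50.0 CPM. Sox10, a factor of precursors and myelinating cells, went from 3.66, 4.95 and 4.94 CPM to 0.479, 0.558 and 0.182 CPM, and Pdgfra, the PDGF receptor that marks precursors, fell by 0.93. In the precursor list 6 of 12 genes fell and 4 rose, and among mature oligodendrocyte markers 7 of 10 fell and 3 rose. Pdgfra fell more than in wild-type cells (−0.93 against −0.09, adjusted p of the difference 0.00221), and the fall of Olig1 was smaller than in wild-type cells by 0.59, and by 0.13 with the GC trend removed.

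Of 16 astrocyte markers 9 fell and 6 rose. Gfap, the astrocyte intermediate filament, stood at 69.8, 68.2 and 72.4 CPM with DMSO and at 23, 27.2 and 27.2 CPM with the inhibitor. Aqp4, the water channel of astrocyte endfeet, fell from 14.8 ± 1 to 2.83 ± 0.542 CPM. Slc1a2, the glutamate transporter GLT-1, rose from 48.6 ± 0.351 to 130 ± 4.23 CPM, so the list did not move as a whole. In wild-type cells Gfap and Aqp4 changed by 0.05 and −0.16, neither called, and the differences of −1.48 and −2.18 passed the test (adjusted p 1.35e-05 and 0.000609).

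Of the 19 neuronal markers seen in both groups 13 rose and 4 fell, with a median of 1.03. A further 2 were listed only through the inhibitor libraries. Of the 9 proneural bHLH factors seen in both groups 8 rose and 1 fell, with a median of 1.19, and 4 more were listed only through the inhibitor libraries. Neurod1, a bHLH factor of differentiating neurons, stood at 0.231, 0.132 and 0.127 CPM with DMSO and at 20.4, 18.8 and 17.5 CPM with the inhibitor. Stmn2, a tubulin-binding protein of growing axons, rose from 0.103 ± 0.0257 to 7.09 ± 0.653 CPM. It had fewer than 5 counts in each DMSO library, so it could only rise. Dcx, a microtubule protein of migrating neuroblasts, rose from 10.6 ± 0.505 to 51.3 ± 5.16 CPM. Tubb3, a neuronal tubulin, rose from 16.5 ± 0.219 to 49.5 ± 2.87 CPM. The summed level of all 21 tested neuronal markers rose from between 1236 and 1291 CPM to between 1792 and 2075 CPM.

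Neuronal membrane and wiring genes rose more often than they fell. Seen in both groups were 43 neurotransmitter receptor genes, of which 23 rose and 9 fell, and 52 voltage-gated and potassium channel genes, of which 29 rose and 14 fell. Gabra4, a GABA-A receptor subunit, stood at 6.57, 5.74 and 5.96 CPM with DMSO and at 39, 36.4 and 37.2 CPM with the inhibitor, a smaller rise than in wild-type cells (2.63 against 6.81, adjusted p of the difference 9.84e-07). Grin2b, an NMDA receptor subunit, rose by 2.47, while Gria2, an AMPA receptor subunit, fell by 0.34, a call that was lost when all 12 libraries were fitted together. Scn1a, a sodium channel, had 72 counts with DMSO and none with the inhibitor, at least 13.5-fold lower. It could only fall and is not among the 52. Kcnj10, the glial potassium channel Kir4.1, fell by 0.94. Of 53 axon guidance genes 34 rose and 8 fell. Efna5, an ephrin ligand, rose by 4.63 and Epha7, an ephrin receptor, by 2.86, while Draxin, a secreted repellent, fell by 1.79 and Ntn1, which encodes netrin-1, fell by 0.67. The changes of Efna5 (−3.39), Draxin (−1.12) and Ntn1 (0.70) differed from those in wild-type cells.

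Markers of other cell types were read in the same libraries. Among the 10 markers of mesenchyme and fibroblasts seen in both groups 5 rose and 1 fell, with a median of 0.24, while 4 more came in through the inhibitor group alone and 1 through the DMSO group alone. The summed level of all 15 went from 329 to 334 CPM with DMSO to 528 to 555 CPM with the inhibitor. Col3a1, a fibrillar collagen, rose from 0.0576 ± 0.0499 to 16.3 ± 2.16 CPM. It had fewer than 5 counts in each DMSO library, so it could only rise. Dcn, a small proteoglycan, had no counts with DMSO and was at least 58.7-fold higher. Of 18 fibroblast markers in the list, Col1a2, Postn and Dpt were not listed for these libraries, which limits how far the list marks that cell type. Of 10 neural crest, Schwann and melanocyte markers 4 rose and 5 fell, and the sum fell from 1504 to 1553 CPM to 447 to 498 CPM, of which Ednrb, the endothelin B receptor, held 1326 ± 16.4 and 302 ± 18.6 CPM. Ngfr, the low-affinity neurotrophin receptor, and Tfap2a, a neural crest factor, rose by 3.72 and 4.42 while Sox10 fell. Of 12 microglial markers 3 were tested and 2 rose, 1 of them listed only through the inhibitor libraries (2.45 to 3.14 CPM in sum with DMSO, 4.45 to 6.61 CPM with the inhibitor), and of 12 endothelial markers 7 were tested, 3 rose and 1 fell (19.1 to 22.9 and 39.4 to 45.6 CPM). Muscle (2 tested of 14, 1 up and 1 down) and epithelial markers (1 tested of 14, higher and listed only through the inhibitor libraries) were near 0, and none of the 5 tested germline genes was called. Aif1, Csf1r and Ptprc of the microglial list and Cdh5 and Cldn5 of the endothelial list were not listed for these libraries. The part of other cell types in the changes was not tested.

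Matrix and adhesion genes held some of the largest rises among genes at or above the median abundance. Itga9, an integrin subunit that binds tenascin-C, stood at 5.46, 4.02 and 5.79 CPM with DMSO and at 74.1, 70.4 and 75.3 CPM with the inhibitor, a change of 3.84 ± 0.095 (SE). Pcolce, which enhances procollagen C-proteinase, rose from 6.93 ± 0.567 to 83.5 ± 2.47 CPM. Of the 40 collagen and collagen processing genes seen in both groups 20 rose and 7 fell, of 26 integrins and laminins 13 rose and 7 fell, and of 25 cadherins and protocadherins 14 rose and 9 fell. The shares of genes that rose in these lists were above the 28.3% among all genes seen in both groups, and no test of a list was made. Itga9 rose more than in wild-type cells, by 1.04 (adjusted p 0.00135), while the difference for Pcolce did not pass (−0.10, adjusted p 0.834).

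**Figure D3:**
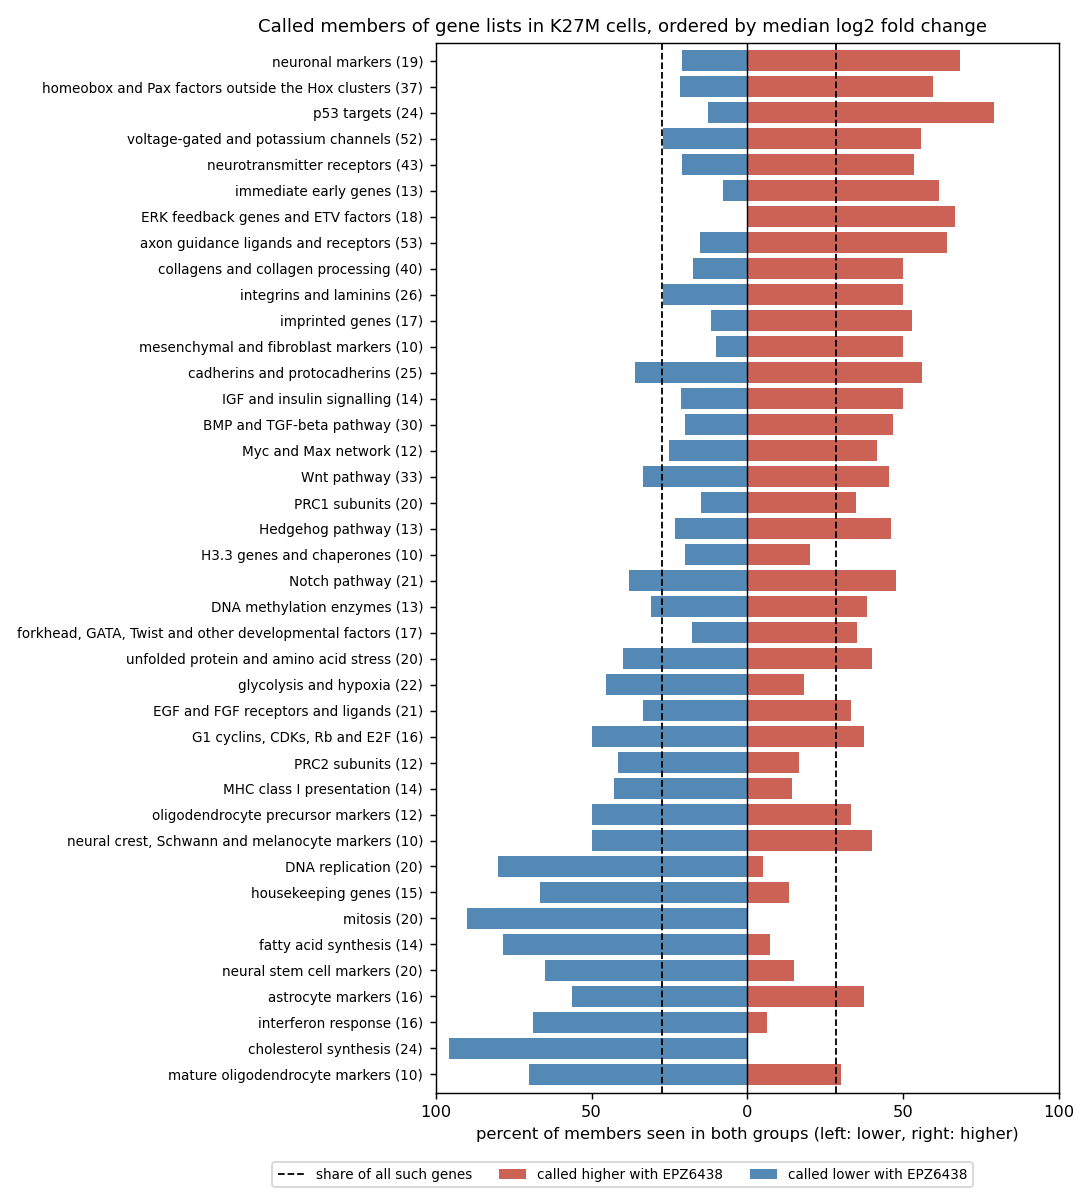
Share of each list's members seen in both groups that were called higher (right, red) or lower (left, blue) with EPZ6438 in K27M cells, for lists of at least 10 such members, ordered by median log2 change; the dashed lines are the shares among all genes seen in both groups, 28.3% and 27.5%. Neuronal markers, homeobox and Pax factors and p53 targets stand at the top, cholesterol synthesis and mature oligodendrocyte markers at the bottom.

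The growth factor pathway that drives the cells was read from ligands to feedback genes. Of 7 PDGF ligands and receptors 5 rose and 1 fell. Pdgfb, the driving ligand, rose from 50, 46.4 and 49.4 CPM to 72.7, 86.4 and 82.1 CPM, where transgene and endogenous transcripts were not told apart. Pdgfd, another PDGF ligand, rose by 3.76 and Pdgfrb, the receptor for both ligands, by 3.22 from 0.454 ± 0.0901 CPM, while Pdgfra fell. Of 21 EGF and FGF receptors and ligands 7 rose and 7 fell, near the shares among all tested genes. Besides Egfr, the fibroblast growth factor receptor Fgfr3 fell by 1.04, and Fgfr1 rose by 0.44. The receptors for the growth factors in the medium thus moved in opposite directions.

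Feedback genes of the ERK pathway, which dampen receptor signalling and are themselves induced by it, rose. Of 18 ERK feedback and ETV genes 12 rose and none fell, with a median of 0.51. Dusp4, a nuclear ERK phosphatase, stood at 23, 21.5 and 24.8 CPM with DMSO and at 97.3, 100 and 96.3 CPM with the inhibitor. Il17rd (Sef), which holds ERK in the cytoplasm, stood at 23.8, 24.1 and 23.6 CPM with DMSO and at 94.2, 85.4 and 93.9 CPM with the inhibitor. Dusp6, a cytoplasmic ERK phosphatase, rose by 1.06, Spry1, a Sprouty inhibitor, by 1.01 and Phlda1 by 1.56. For 13 of the 18 genes the response was more positive than in wild-type cells and for 2 more negative, against 20% and 15.8% of all genes tested for a difference, and 11 of the 13 were still called with the GC trend of each library removed. Dusp4, Dusp6, Spry1 and Phlda1 were among them, by 0.81, 0.53, 0.64 and 1.21, and Il17rd was not (0.04, adjusted p 0.781). Of 13 immediate early genes 8 rose and 1 fell, among them Arc, a synaptic immediate early gene, by 1.36.

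In the Hedgehog pathway the ligand and its target receptor fell and co-receptors rose. Shh, the ligand, stood at 42.2, 40.7 and 43.7 CPM with DMSO and at 14.3, 13.3 and 13.6 CPM with the inhibitor. Ptch1, its receptor and transcriptional target, went from 405, 405 and 412 CPM to 178, 185 and 188 CPM. Gli1, another target, fell by 0.32 with an adjusted p of 0.0495, a call that 11 alternatives lost. The co-receptors Boc, Cdon and Gas1 rose by 1.25, 0.84 and 0.71. Over the pathway 6 of 13 genes rose and 3 fell, beside 28.9% and 27.3% of all tested genes. Shh and Ptch1 fell more than in wild-type cells, by 0.97 and 0.87 (adjusted p 0.00192 and 4.6e-06), and Gli1, which rose by 1.71 in wild-type cells, differed by −1.99.

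In the Notch pathway 10 of 21 genes rose and 8 fell, beside 28.9% and 27.3% of all tested genes. Hes5, a target that keeps progenitors undifferentiated, stood at 66.9, 64.4 and 70.9 CPM with DMSO and at 29.4, 29.3 and 29.1 CPM with the inhibitor. Hey2, another target, fell by 0.90, whereas it rose by 1.73 in wild-type cells, a difference of −2.58 (adjusted p 6.9e-05). Of the 33 Wnt genes seen in both groups 15 rose and 11 fell. Lef1, a nuclear mediator of Wnt signals, had no counts with DMSO and stood at 2.05, 1.99 and 6.63 CPM with the inhibitor, where replicate 3 lay above the others. Of the 30 BMP and TGF-beta genes seen in both groups 14 rose and 6 fell, and Bmpr1b, a BMP receptor, fell by 1.43. Of 14 IGF and insulin genes 7 rose and 3 fell. Igf1, a ligand, fell by 2.08, and Igf1r and Irs2, its receptor and an adaptor, rose by 0.73 and 0.70. Of 8 neurotrophin genes 4 rose and 2 fell, with Ntrk2, the BDNF receptor TrkB, at 597, 601 and 605 CPM with DMSO and 162, 166 and 166 CPM with the inhibitor.

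Genes of lipid synthesis fell. Of 24 cholesterol synthesis genes 23 fell and none rose, with a median of −0.61. Hmgcs1, an early enzyme of the pathway, stood at 1987, 2016 and 1958 CPM with DMSO and at 865, 806 and 834 CPM with the inhibitor. Of 14 fatty acid synthesis genes 11 fell and 1 rose. Acss2, which makes cytosolic acetyl-CoA from acetate, fell by 1.74 and Scd1, a desaturase, by 0.88, while Srebf1, a transcription factor of lipid synthesis, rose by 0.68. Enzymes and this regulator thus moved in opposite directions. Hmgcs1 fell more than in wild-type cells, by 0.65, and by 0.22 with the GC trend removed.

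Of 22 glycolysis and hypoxia genes 10 fell and 4 rose, with the glucose transporter Slc2a3 down by 0.90. Of 16 interferon response genes 11 fell and 1 rose, and of 14 MHC class I presentation genes 6 fell and 2 rose. Gbp2, an interferon-induced GTPase, went from 1.85, 1.72 and 2.41 CPM to 0.205, 0.398 and 0.0908 CPM. Ifih1, the RNA sensor MDA5, fell by 1.96. Of 20 unfolded protein and amino acid stress genes 8 rose and 8 fell. Of the 9 senescence-associated secreted factors seen in both groups 3 rose and 3 fell, near the shares among all genes, beside the rise of Cdkn2a. Of 15 housekeeping genes 10 fell and 2 rose (median −0.27), and of 8 mitochondrially encoded genes 5 fell, so falls of about that size were also seen in genes used as references.

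No gene of PRC2 itself changed by 2-fold or more. Ezh2, the drug's target, stood at 203, 198 and 196 CPM with DMSO and at 162, 143 and 151 CPM with the inhibitor, a change of −0.39 (adjusted p 5.59e-05). In wild-type cells it changed by 0.25, not called, and the difference of −0.62 passed the test (adjusted p 0.00238). Suz12, a core PRC2 subunit, fell by 0.28 with overlapping groups, a call lost in 5 alternatives, and Eed, another, changed by 0.07 (adjusted p 0.332). The drug acts on the enzyme's activity, so transcript levels do not check it. Of 12 PRC2 genes 5 fell and 2 rose, and of 20 PRC1 genes 7 rose and 3 fell. Of all tested genes 28.9% rose and 27.3% fell, and the counts of these and the following small lists were not tested against those shares. Of 4 H3K27 demethylase and acetyltransferase genes 3 rose, among them Kdm6b, the demethylase JMJD3, from 74.4 ± 5.9 to 107 ± 4.1 CPM. Of 10 H3.3 genes and chaperones 2 rose and 2 fell. H3f3a and H3f3b, the genes of H3.3, rose by 0.26 and 0.30, and counts per gene do not separate mutant from wild-type transcripts. Of 13 DNA methylation enzymes 5 rose and 4 fell, with Dnmt3a up by 0.34 and Uhrf1, a cofactor of maintenance methylation, down by 0.37.

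Among genes at or above the median abundance the largest falls were those of carbonic anhydrase genes. Car8, a catalytically inactive member of the family, stood at 100, 101 and 105 CPM with DMSO and at 8.77, 9.08 and 8.62 CPM with the inhibitor, a change of −3.53 ± 0.054 (SE). Car3, the muscle isoform, stood at 181, 173 and 181 CPM with DMSO and at 19.4, 20.2 and 20.2 CPM with the inhibitor. Replicates of a group lay within a narrow range beside the distance between groups. Car3 fell more than in wild-type cells, by 1.05, and Car8 did not pass that test (−0.27, adjusted p 0.143).

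**Figure D4:**
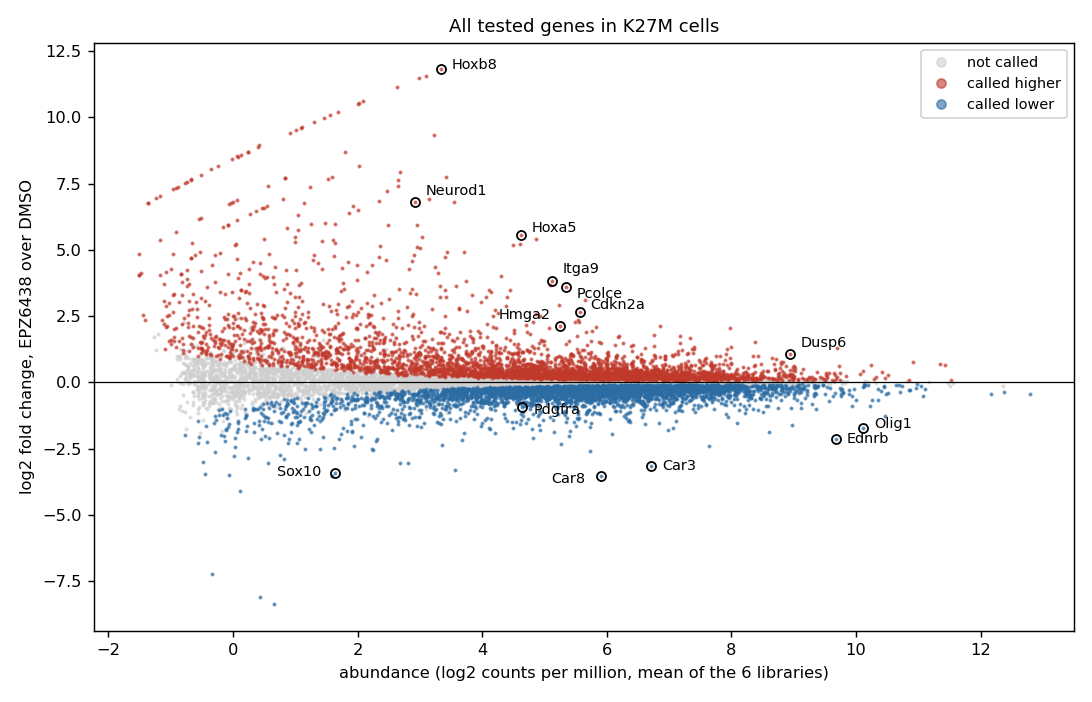
Log2 change with EPZ6438 against mean abundance (log2 CPM) for the tested genes in K27M cells, with called genes in colour and named genes marked. The largest rises lie at low abundance, among genes that start near 0 with DMSO. Car3 and Car8 are the largest marked falls among genes at or above the median abundance. Ednrb and Olig1, also marked, fall less and at higher abundance.

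The inhibitor was set beside its effect in wild-type cells, which share no library with the K27M comparison. In wild-type cells 2752 of 12870 genes rose (21.4%) and 2668 fell (20.7%). Of 12836 genes tested in both, 780 rose 2-fold or more in K27M cells and 945 in wild-type cells, and the 582 shared are 74.6% of the first and 61.6% of the second. For falls of that size the counts were 282, 314 and 144, or 51.1% and 45.9%. Of the 780 genes 665 were called higher in wild-type cells and 3 lower. The fold changes of the genotypes correlated across genes with a Pearson r of 0.80 and a Spearman rho of 0.45, and genes are not independent replicates.

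The response differed between genotypes for 4662 of 13040 genes (35.8%). This count depends on composition: the fold changes followed GC content in opposite directions (Spearman 0.27 in K27M and −0.40 in wild-type cells), and their difference followed it with 0.67. With each library's GC trend removed 2745 genes differed, and 38.4% of the 4662 calls remained with the same sign. Without wild-type DMSO replicate 1, whose removal raised the wild-type calls from 5420 to 7703, 6820 genes differed, among them 96.9% of the 4662. Of the 111 genes named in the text 81 were tested for a difference, 59 differed, and 46 did so also with the GC trend removed and also without that replicate. Differences from wild-type cells that are described above are among these 46, unless a failed test is stated. With the GC trend removed the difference was −0.25 for Ezh2, 0.39 for Cdkn1a, −0.37 for Cdkn1b, 0.43 for Sesn2, 0.48 for Dusp4, 0.31 for Spry1, 0.81 for Phlda1 and 0.31 for Ntn1, each over 1.5 times smaller.

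**Figure D5:**
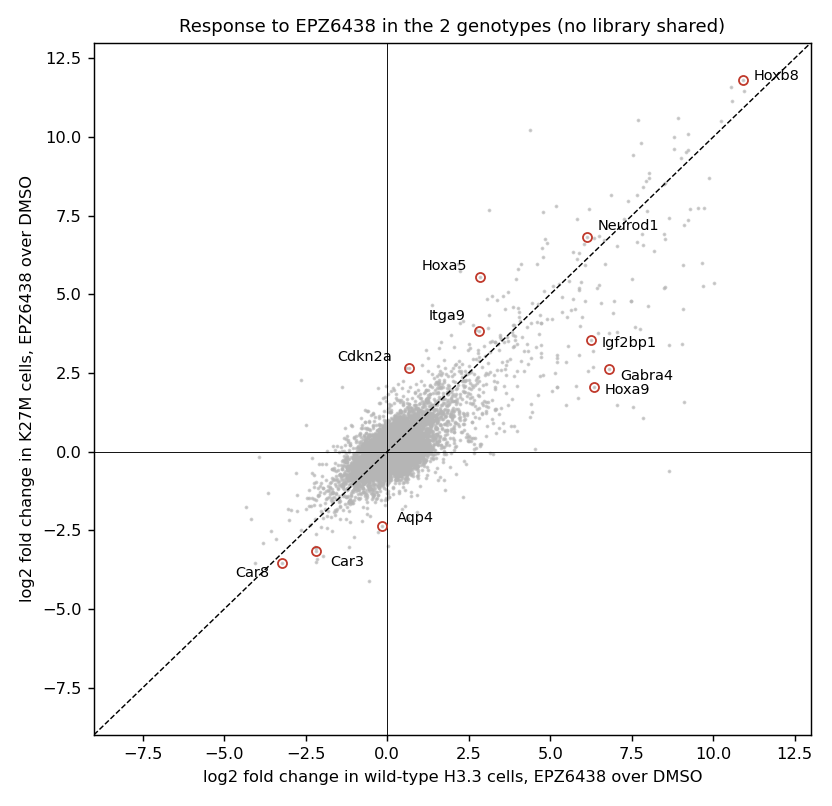
Log2 change with EPZ6438 in K27M cells (vertical) against wild-type cells (horizontal) for the genes tested in both, with named genes marked; the line marks equal change. Most large changes share their sign, Cdkn2a and Hoxa5 lie above the line, and Hoxa9 and Gabra4 below it.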

How the data were processed

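RNA was measured in 6 K27M and 6 wild-type H3.3 libraries. Per the labels' protocols, polyadenylated RNA was extracted with RNeasy, and TruSeq libraries were run on a HiSeq2500. Kallisto and sleuth were used with GRCm38 (mm10), per the submitters' processing notes, which name no version or strand setting. The tables the authors deposited hold estimated counts per transcript, divided by a factor per library. The factor was found from the steps between low values and undone. Transcripts of a gene were added up and rounded to whole counts, and transcripts with no gene name (0.449 to 0.554% of counts) stayed out. Each listed transcript reached 5 counts in 3 or more libraries of its table, so rarer ones were not analysed here.

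Counts were tested with edgeR 4.0.16 in R 4.3.3 (filterByExpr, TMM, quasi-likelihood test, two-sided, Benjamini-Hochberg). The difference between genotypes is the interaction over 12 libraries on 34436 transcripts listed in all 4 tables. Exact permutation of 3 against 3 libraries cannot go below 0.1 and was not used. On simulated data the K27M fit recovered 67% of 100 genes changed 1.3-fold and 80% of 100 changed 2-fold, and called 0.158% of unchanged genes. The simulation changed only these genes of 13503, equally up and down and with no GC trend. In the data 56.3% of genes were called, so these rates need not hold there. Replicates within the K27M groups differed by a chi-square of 2.09 to 5.11 per gene, so none of these was a repeat deposit. Wild-type replicates were not checked in this way. Intervals and floors (95%, 3 counts) cover counting error only.

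Genes were named by a rule: the PRC2 core, Cdkn2a, Cdkn2b, Cdkn1a and H3.3 genes, the 12 largest rises and 12 largest falls at or above the median abundance, the 10 highest genes with no DMSO counts, the key members of 58 lists, and up to 6 called members of each list with a mean of at least 1 CPM. Some genes that the rule names are not reported here. The members and lists were chosen with earlier results of these data known. Alternatives were DESeq2 1.42.0, other scalings and filters, thinning, GC correction, a replicate block, all 12 libraries in 1 fit, and leaving out each library. The GC correction of the genotype difference, every alternative in wild-type cells and the transcript shares without single libraries were added after seeing the data.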

Additional observations from a re-analysis of the deposited data

Results flagged for a closer look

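A test of the interaction between genotype and inhibitor found a different response in K27M and wild-type cells for 59 of the genes named in the text, at an adjusted p below 0.05 in edgeR over 13040 genes, with 28 more positive and 31 more negative in K27M cells. Values are differences of log2 changes, K27M minus wild-type. Of all genes tested for a difference 35.8% were called.

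Of these genes 46 kept the call and its sign both with the GC trend of each library removed and without wild-type DMSO replicate 1. The fitted changes were positive in both genotypes and smaller in K27M cells for Hoxa9 −4.34, Gabra4 −4.17, Efna5 −3.39, Pdgfd −2.80, Igf2bp1 −2.69, Cdkn1c −1.43 and Dnmt3a −0.24. They were positive in both and larger in K27M cells for Cdon 0.24, Mest 0.36, Dusp6 0.53, Spry1 0.64, Cdkn1a 0.68, Dusp4 0.81, Sesn2 0.83, Hmga2 0.84, Itga9 1.04, Phlda1 1.21, Hoxa3 1.77, Ngfr 1.80, Cdkn2a 2.01, Hoxa4 2.40 and Hoxa5 2.74. They were negative in both and the fall was larger in K27M cells for Aqp4 −2.18, Draxin −1.12, Car3 −1.05, Bmpr1b −1.01, Shh −0.97, Ptch1 −0.87, Pdgfra −0.78, Hes5 −0.75, Slc2a3 −0.75, Ednrb −0.66, Hmgcs1 −0.65, Fgfr3 −0.62, Sox2 −0.33 and Acss2 −0.27. They were negative in both and the fall was smaller in K27M cells for Kcnj10 0.29, Olig1 0.59 and Ntn1 0.70. Fitted changes of opposite sign, negative in K27M and positive in wild-type cells, gave Hey2 −2.58, Gli1 −1.99, Gfap −1.48, Rb1 −0.97, Cdkn1b −0.73 and Ezh2 −0.62. The change was positive in K27M and negative in wild-type cells for Irs2 1.01. A fitted change in 1 genotype need not itself be called. Hoxa9 and Igf2bp1 were near the floor in wild-type cells with DMSO (means of 0.0697 and 0.299 CPM), so the sizes of their differences are uncertain. With the GC trend removed 18 of these 46 differences moved by over 1.5 times. They became smaller, at −0.25 for Ezh2, 0.39 for Cdkn1a, −0.37 for Cdkn1b, −0.39 for Rb1, 0.13 for Olig1, 0.31 for Ntn1, −0.25 for Ednrb, 0.48 for Dusp4, 0.31 for Spry1, 0.81 for Phlda1, −0.56 for Bmpr1b, 0.66 for Irs2, −0.22 for Hmgcs1 and 0.43 for Sesn2. They became larger, at −0.98 for Fgfr3, −1.23 for Hes5, −0.46 for Acss2 and −0.41 for Dnmt3a.

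The other 13 lost the call, or changed sign, in at least 1 of those 2 alternatives. They were Igf1 −2.06, Egfr −0.50, Scd1 −0.27, Ntrk2 −0.23, Nes 0.21, Uhrf1 0.27, Fgfr1 0.33, Pdgfb 0.43, Arc 0.45, Gas1 0.47, Olig2 0.48, Srebf1 0.49 and Grin2b 0.91. With the GC trend removed the difference was −0.10 for Nes, −0.0076 for Pdgfb and −0.0094 for Fgfr1, each positive before. The cause of these differences was not tested.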

How the results depend on the processing

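In K27M cells 7598 genes were called, and the alternatives gave between 5234 (all 12 libraries in 1 fit) and 7958 (GC trend removed), DESeq2 6339 and thinning to the shallowest library 6979. Calls kept with the same direction were 82.2% of the 7598 with the GC trend removed. In the fit of all 12 libraries, which did not test every gene, 68.4% were kept. Leaving out 1 library gave 6626 to 7679. Genes called lower numbered 3690 and 2432 when all 12 libraries shared 1 fit. Upper-quartile scaling gave 55.7% of calls as rises against 51.4%. Of the 111 named genes 81 were tested in all 17 alternatives, and 76 of them kept call and direction in each. The other 30, Hoxb8 among them, were not in the fit of all 12 libraries and kept call and direction in the alternatives that tested them. None changed direction where it was tested. Gli1, Suz12, Cdkn2b and Gria2 lost the call in 11, 5, 1 and 1 alternatives, and Eed gained it with the GC trend removed (0.14). Of 116 counts of list members called in 1 direction, 40 moved by over 1.5 times in at least 1 alternative, most of them counts of few genes, and a gene that an alternative did not test counts as not called there, as for HoxB, HoxC and HoxD. The difference between genotypes gave 4662 calls, 2745 with the GC trend removed, and 3243 to 6820 without single libraries. Wild-type cells gave 5420 calls and 3344 to 7703 without single libraries, the lowest without DMSO replicate 3, and 3425 without inhibitor replicate 3. The p16Ink4a share without single libraries was 6.47 to 8.61% with DMSO and 38.2 to 42.2% with the inhibitor. The causes of these shifts were not tested.

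Replicate numbers were not taken to pair the samples, since deviations of same-numbered libraries did not all correlate above 0.1, with −0.018, −0.035 and 0.058 in K27M cells and 0.29, 0.32 and −0.032 in wild-type cells, where numbers 1 and 2 deviated together and number 3 did not. With the replicate block 7545 genes were called in K27M cells, 5732 differed between genotypes and 7154 were called in wild-type cells. Inhibitor libraries were shallower than DMSO libraries, so a gene with few counts can be missed in them.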
